A study of Mus musculus with 9 samples.

Results

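Mouse embryonic stem cell (mESC) lines derived from IVF embryos that had been cultured in a suboptimal medium (WM lines, n = 3) were compared with lines derived from IVF embryos cultured in an optimal medium (KAA lines, n = 3). These are 6 of the 9 lines measured, and they were chosen by their sample titles alone. The comparison asks whether established lines still differ by the culture that the embryo had met before derivation. Oocytes of C57BL/6 females aged 6 to 8 weeks were fertilized in vitro. The KAA embryos were kept to the blastocyst stage in KSOM with amino acids, a potassium simplex optimized medium, under 5% O2 and with 0.2 mM glucose. The WM embryos were kept in Whitten's medium under 20% O2 and with 5.5 mM glucose. Medium, oxygen and glucose therefore changed together and cannot be told apart. The other 3 lines (FB) came from blastocysts flushed after natural mating. They are given as a reference level, and their spread also enters the standard errors and p-values below.

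From the blastocyst onward all lines shared the same conditions. Each line grew from an individual blastocyst on CF-1 mouse embryonic fibroblast feeders with leukemia inhibitory factor and 2i, a pair of inhibitors of GSK3 and of MEK, the kinase above ERK, under 20% O2. The cells were moved to gelatin for the last passages and collected at passage 8. RNA was hybridized to Affymetrix Mouse Gene ST arrays, 1 array per line, and the authors deposited log2 levels. Each level is that of a transcript cluster, whose probes read 1 gene, a stretch of a gene or several near-identical genes. Of 35556 clusters in the deposited table, the 23410 with at least 1 annotated gene were tested, and 21789 of them carry a single symbol. Differences are the mean of the WM lines minus the mean of the KAA lines on the log2 scale, so that 1 is a doubling.

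Mouse ES cells in this medium occupy the naive state, in which Oct4 (Pou5f1), Sox2 and Nanog hold the pluripotency network while the MEK inhibitor keeps ERK signaling low. A few cells in such cultures pass for a short time through a state resembling the 2-cell embryo, marked by Zscan4. Others drift towards primitive endoderm, marked by Gata6 and Gata4. Levels in bulk RNA cannot separate a change in the number of such cells from a change of RNA in each cell.

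The labelled cell type fitted the defining markers. Pou5f1 lay between 10.07 and 10.30 in all 6 IVF lines, Sox2 between 8.62 and 9.17 and Nanog between 8.52 and 10.35, whereas Pax6, a marker of ectoderm, lay between 3.98 and 4.54. The lines are labelled female. Eif2s3y, a Y-linked gene, was at 3.72 in KAA2 and 5.19 in WM3 but between 1.77 and 2.20 in the other 4 IVF lines. Uty, also Y-linked, was at 3.1 in KAA2 and 4.42 in WM3 and between 1.77 and 2.11 in the other 4. Kdm5d lay between 1.96 and 2.46 in all of them. Among the FB lines, FB1 was at 4.78 for Eif2s3y and at 2.63 for Uty, and FB2 and FB3 were at or below 2.08 for both. The cause was not tested, and the calls that were kept without KAA2 and WM3 are named below. X-linked genes as a whole did not shift between the groups. Their median WM minus KAA difference was 0.0073 above that of autosomal genes over 790 clusters. As KAA2 and WM3 are in different groups, this contrast does not describe those lines. The median deviation from the mean of the 6 lines, X-linked minus autosomal, was -0.0056 in KAA2 and -0.0041 in WM3. It was 0.00092 to 0.020 in the other 4. The 6 lines had medians between 4.65 and 4.70 and correlated across clusters at a Pearson's r of 0.993 to 0.994 within groups and 0.991 to 0.994 between them.

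By the rank product, 59 clusters rose in the WM lines (0.252% of those tested) and 6 fell (0.0256%). The rank product, the test named in the methods of the study, ranks clusters by their change in all 9 pairings of a WM with a KAA line and passes those with an estimated share of false positives (pfp) under 0.05. Of the 59 clusters, 43 had a mean level under 4 in the KAA lines, as did 39.4% of all tested clusters, and a low level in these lines is itself part of what a rise selects. In 49 of the 59, every WM line lay above every KAA line, a pattern that 4.03% of all tested clusters showed. In 2 of the 6 that fell, every WM line lay below every KAA line, against 4.63% of all. The rank product draws on the same pairings, so its calls are selected for such separation and these shares are no test of it. Limma weighs each difference against the spread within groups over all 9 lines, FB among them. It passed 0 clusters after Benjamini-Hochberg adjustment (0% of those tested, lowest adjusted p = 0.253). At an unadjusted p under 0.05 it gave 703 clusters higher in WM (3% of those tested) and 770 lower (3.29%). The median difference of all clusters was -0.0068, and 47.8% of them lay above 0.

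**Figure D1:**
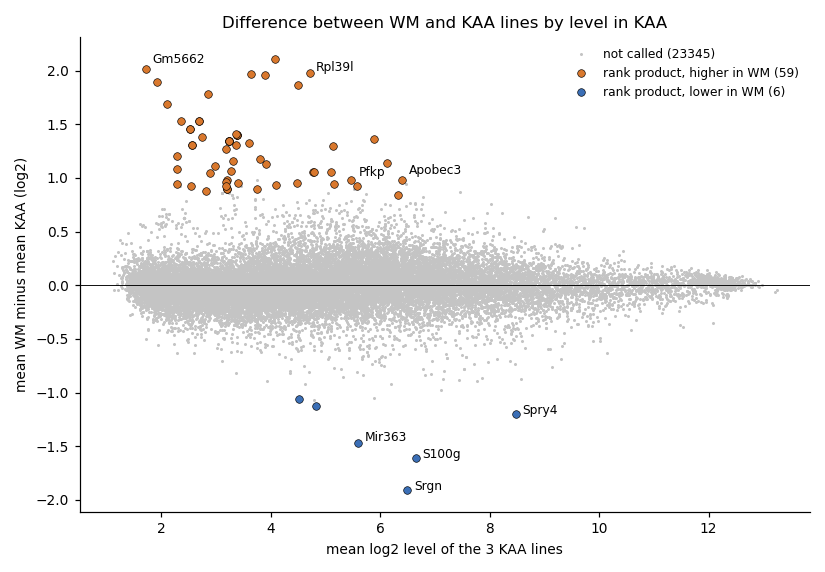
WM minus KAA difference (log2) of every tested transcript cluster against its mean log2 level in the KAA lines, with the clusters that passed the rank product in orange (59 higher in WM) and blue (6 lower). Most of the orange points lie at mean levels under 4 in the KAA lines, and Spry4 is the fallen gene with the highest level.

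These counts changed when single lines were left out, which also left the rank product fewer pairings. The number of risen clusters was 23 without WM2, 24 without WM3 and 39 without KAA3, and reached 62 without KAA2. The number that fell was 1 without WM1, 2 without KAA1, 3 without KAA2 or without KAA3 and 35 without WM3. With KAA2 and WM3 left out together, a setting chosen after the values were seen, 28 clusters rose and 12 fell, and 19 of the 59 and 5 of the 6 were among them. The 19 were Rpl39l, Gm5662, Stxbp4, Gpr137b-ps, C330024D21Rik, the 3 Zscan4 clusters, 1 of the Gm4340 family, 4 PRAME-like, both Xlr3, both interferon GTPase and 2 Gm7982 clusters. The other 40 rises were not called in that setting, nor was the fall of Mir92-1 with Mir17hg. With fewer pairings a call can be lost although the difference does not shrink. Pfkp went from 0.98 to 1.23 and Mir92-1 with Mir17hg from -1.06 to -1.18, whereas a cluster of Cspp1 went from 1.06 to 0.49. Of the 59, 8 passed in each of the 6 runs that left out a single line. These 8 were Rpl39l, Gm5662, 3 clusters of the Zscan4 genes and 3 of Gm7982. Of the 6 that fell, 0 passed in each of these runs.

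Clusters of Zscan4 and of Gm5662, both markers of the 2-cell-like state, were among the largest rises. Zscan4 encodes zinc finger proteins that appear at genome activation in the 2-cell embryo and in rare ES cells, where they act on telomeres. The array has 3 clusters shared by Zscan4a, Zscan4b, Zscan4c, Zscan4d and Zscan4f, and all of them rose, by 1.96, 1.97 and 2.11. In the last of these the KAA lines were at 3.69, 4.30 and 4.24 and the WM lines at 5.66, 7.15 and 5.75 (standard error 0.95, adjusted p = 0.771 from limma). The WM lines were all above the KAA lines, with WM2 well above the others. The FB lines were at 3.44, 7.86 and 5.12 and spanned the whole range of both IVF groups.

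Gm5662, an Eif1a-like gene of the same state, rose by 2.02 (standard error 0.91). It was at 1.98, 1.68 and 1.49 in the KAA lines, near the bottom of the scale, and at 3.79, 4.45 and 2.95 in the WM lines. The groups did not overlap. A cluster shared by Gm4027 and BB287469, also Eif1a-like, was at 2.34, 2.25 and 2.50 in the KAA lines and at 2.55, 4.92 and 4.21 in the WM lines. It rose by 1.53, but WM1 lay only just above KAA3, and the call was lost without WM2 and without WM3. Another cluster shared by Gm4027, Gm5662, Eif1a and other genes of this family rose by 0.92. AF067061 was at 3.84, 3.99 and 3.59 in the KAA lines and at 4.25, 6.18 and 4.52 in the WM lines, so that its rise of 1.17 came mainly from WM2, without which it was 0.58 and did not pass.

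Whole families of near-identical genes rose beside them. All 17 clusters of Gm7982 on the array rose, by 1.06 to 1.89, although they hold only 12 distinct profiles of values, so they are not 17 separate findings. Their median level was 3.03, 2.68 and 2.90 in KAA1, KAA2 and KAA3 and 3.59, 4.25 and 4.86 in WM1, WM2 and WM3. Here WM3 rather than WM2 was highest. Without WM3, 14 of the 17 were not called, and without KAA2 and WM3 15 were not. The PRAME-like genes (Pramel16, Pramel20, Pramel31 and others), a leucine-rich repeat family expressed in early embryos and germ cells, had 6 shared clusters that rose by 0.89 to 1.40, all with WM2 highest. Clusters of this family repeat each other's values, 3 of them at the rise of 1.40. In these WM2 was at 6.73, WM1 at 3.89 and WM3 at 3.71, against 3.01, 3.70 and 3.42 in the KAA lines. Without WM2 the difference was 0.42 and did not pass.

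Of the other shared clusters, 2 of the Gm4340 family rose by 1.13 and 1.86, and 2 of the X-linked Xlr3a, Xlr3b and Xlr3c genes by 0.92 and 1.11. The Xlr3 calls were lost without KAA3, WM1 or WM2, with differences down to 0.52 and 0.65. Members of these named families, with Gm7982, made 33 of the 59 risen clusters. In 39 of the 59, FB2 lay above all 6 IVF lines. The 2-cell-like genes with a cluster of their own showed little shift as a list. Of 13 measured, 8 were above 0, with a median difference of 0.055 against -0.0068 for all clusters, and 2 passed the rank product (Gm5662 and AF067061). Without WM2 the median was -0.017. Zfp352, another gene of this state, was at 3.47, 2.83 and 3.38 in the KAA lines and at 2.88, 3.56 and 4.21 in the WM lines, which overlapped.

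The promoter of BB287469 is shown because its gene belongs to the risen group and its sequence holds a motif of that state. The letters TAATNNAATCA, a relaxed form of the site bound by the double homeobox factor DUX4 in humans, were searched on both strands of the 250 bases before and 50 after each gene start in RefSeq, build GRCm38.p6. They were found in 115 of 32851 promoters (0.35%). Of 51 promoters matched to genes of the risen clusters, 3 held them (Gm4027, Gm21319 and BB287469), all of the same family and similar in sequence, so they count as 1 case. The 250 bases before the start of BB287469, chr12:87816327-87816576 on the plus strand, follow with the match in capitals on the opposite strand, beginning 129 bases before the start.
BB287469: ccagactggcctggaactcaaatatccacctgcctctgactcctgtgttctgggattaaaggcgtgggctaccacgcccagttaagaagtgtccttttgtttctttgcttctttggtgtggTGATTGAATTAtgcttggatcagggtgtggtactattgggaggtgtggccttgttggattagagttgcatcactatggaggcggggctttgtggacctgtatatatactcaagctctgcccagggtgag
The match is a run of letters and not a measured binding site.

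**Figure D2:**
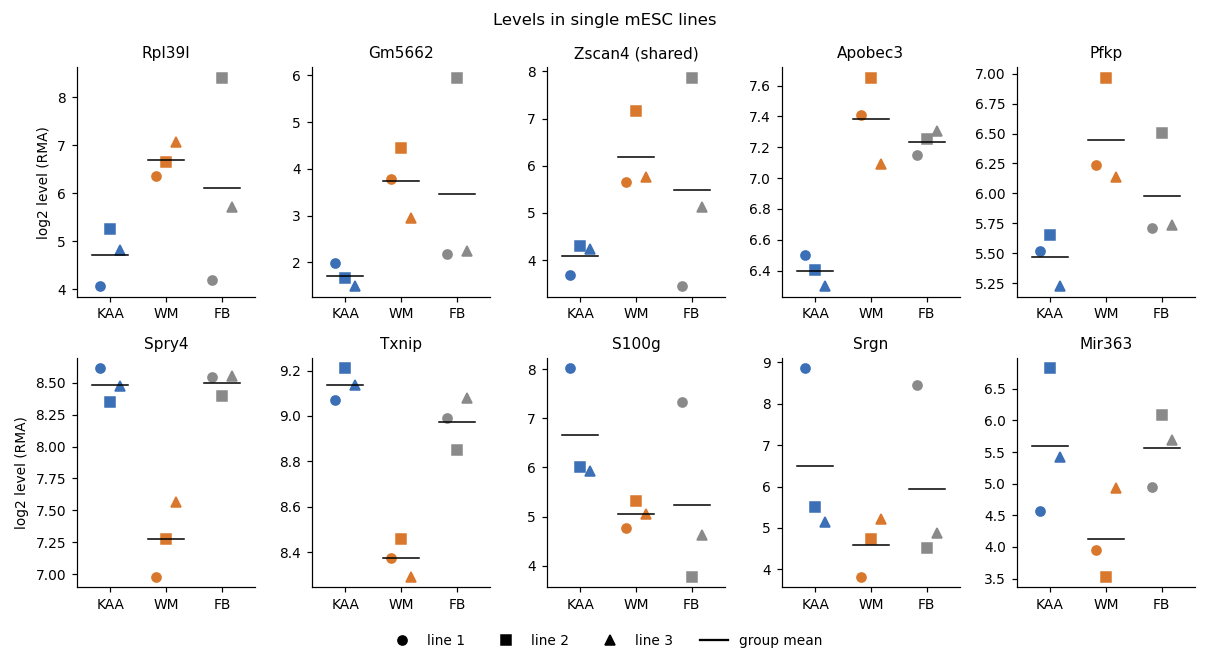
Log2 level of 10 genes in each mESC line of the KAA (blue), WM (orange) and FB (grey) groups, with symbols for the line number and bars for the group mean; the Zscan4 panel shows the shared cluster with the largest difference. The 3 WM lines lie above all KAA lines for Rpl39l, Gm5662, Zscan4, Apobec3 and Pfkp and below them for Spry4, Txnip and S100g.

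Rpl39l, a paralog of the ribosomal protein gene Rpl39 that is best known from male germ cells, rose 3.93-fold. It was at 4.06, 5.25 and 4.82 in the KAA lines and at 6.35, 6.64 and 7.06 in the WM lines, which is 1.97 apart on average, with a standard error of 0.88 and an adjusted p of 0.771 by limma. The lowest WM line lay 1.11 above the highest KAA line. The FB lines ran from 4.19 to 8.40, a wider range than both IVF groups together, and their spread enters this standard error. The difference without any single line was between 1.65 and 2.24, and 2.05 without KAA2 and WM3. The ordinary ribosomal proteins did not move with it. Of 55 measured, 41 were above 0 but with a median of 0.019, and 0 passed the rank product. The translation initiation factors, which load ribosomes onto mRNA, had 22 of 34 above 0, a median of 0.046 and 0 calls. Every WM line lay above every KAA line in 6 of the 34, against 4.03% of all clusters, and below in 1, against 4.63%. Eif1b, the 1 below, was at 8.67, 9.00 and 8.70 in the KAA lines and at 8.46, 8.41 and 8.36 in the WM lines (difference -0.37, standard error 0.098).

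Several risen genes belonged to no family. Apobec3, a cytidine deaminase that restricts retroviruses, rose by 0.98 (standard error 0.13). It was at 6.50, 6.40 and 6.30 in the KAA lines and at 7.41, 7.65 and 7.09 in the WM lines, with little spread in either group, and its adjusted p from limma was 0.278. The FB lines, at 7.15, 7.25 and 7.31, were near the WM lines, so that here the KAA lines stood apart. The call was lost in 4 of the 6 runs without a line, with differences that stayed between 0.85 and 1.13. The other cluster of Apobec3 lay near 4 and differed by -0.16.

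Pfkp, the platelet isoform of phosphofructokinase, which commits sugar to glycolysis, rose by 0.98 (standard error 0.27). It was at 5.52, 5.65 and 5.22 in the KAA lines and at 6.23, 6.97 and 6.14 in the WM lines, which did not overlap. The FB lines lay between 5.71 and 6.50. Its call was also lost in 4 of the 6 runs without a line, with differences between 0.72 and 1.13. Stxbp4, a syntaxin-binding protein of vesicle traffic, was at 3.85, 3.23 and 3.74 in the KAA lines and at 5.62, 4.56 and 4.62 in the WM lines. It rose by 1.33 (standard error 0.32) in this cluster and differed by -0.030 in its other one.

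Some rises came from part of a gene. Of the 15 clusters of Dnajc13, a chaperone partner on endosomes, 1 rose, by 1.36, and the others ran from -0.24 to 0.94. WM3 alone was at 8.84 in that cluster, and the other 5 IVF lines lay between 5.69 and 6.73. Chd7, a chromatin remodeler, had 1 risen cluster of 30, Myo9a, a motor protein, 1 of 13, Cspp1, a centrosome protein, 2 of 14 and Dennd4a, a regulator of Rab GTPases, 2 of 9. Sh3pxd2a, a scaffold of the podosome, rose by 1.06 in one cluster, while its second differed by 0.057. Gsap, Gpr137b-ps, Cyp39a1, an oxysterol hydroxylase, Efcab7, Snord37, BC147527 and C330024D21Rik rose by 0.90 to 1.27. A cluster shared by Gm44805 and Apoc2 rose by 1.30 and the X-linked Fmr1nb by 0.84, the smallest called rise, with a pfp of 0.0498. Most of these were named after their values were seen, as the Gm7982 clusters filled most of the places that the naming rule gave to the rank product.

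Genes induced by interferon were represented by 2 shared clusters. The first, of the guanylate-binding proteins Gbp2 and Gbp2b, was at 5.11, 6.97 and 6.32 in the KAA lines and at 7.94, 7.49 and 6.38 in the WM lines. It rose by 1.14, and WM3 lay within the KAA range. The call was lost without KAA1, WM1 or WM2, with differences down to 0.63. The other, of the GTPases Irgm2 and Igtp, was at 3.15, 3.51 and 2.96 in the KAA lines and at 4.57, 4.59 and 3.40 in the WM lines and rose by 0.98. WM3 again lay within the KAA range, and the call was lost without KAA1, KAA3, WM1 or WM2. Without KAA2 and WM3 this cluster had a difference of 1.52 and was the single one to pass limma in that setting (adjusted p = 0.0489). Among 20 interferon and antigen presentation genes with a cluster of their own, 14 were above 0, with a median of 0.16, and 1 passed the rank product (Apobec3). The median was 0.067 without WM1, 0.068 without WM2 and 0.28 without WM3. Oasl2, of the oligoadenylate synthetase family, was at 4.34, 4.36 and 4.34 in the KAA lines and at 4.68, 4.94 and 4.48 in the WM lines. Nmi, an interferon-induced adaptor, was at 4.96, 5.02 and 4.78 and at 5.73, 5.70 and 5.43, with the FB lines between 5.43 and 5.61. Neither passed (Nmi difference 0.70, adjusted p = 0.407 from limma).

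Txnip had the smallest p in limma. It encodes thioredoxin-interacting protein, which holds down glucose uptake and is itself switched on by glucose through the factors MondoA and ChREBP. Txnip was at 9.07, 9.21 and 9.14 in the KAA lines and at 8.38, 8.46 and 8.29 in the WM lines, a difference of -0.76 (standard error 0.086). The FB lines, at 8.99, 8.85 and 9.08, lay near the KAA lines. The gap between the groups was wide against the spread within them, yet Txnip passed neither limma (adjusted p = 0.253) nor the rank product (pfp 0.0763). Arrdc4, the other well-known target of the same factors, was at 6.35, 6.22 and 6.24 in the KAA lines and at 6.13, 6.66 and 6.00 in the WM lines, a difference of -0.0090. The other members of this pathway, among them Mlx, Mlxip and Mlxipl, differed by -0.36 to 0.10.

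The promoter of Txnip is shown because this response to glucose acts through a known pair of boxes before the gene. The letters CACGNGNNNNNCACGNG, a relaxed form of the carbohydrate response element, were searched on both strands of the same 32851 promoters and found in 16 (0.0487%), with Txnip among them. Of the promoters matched to genes of the risen or fallen clusters, 0 of 51 and 0 of 5 held them. The 250 bases before the start, chr3:96557707-96557956 on the plus strand of GRCm38.p6 from RefSeq, follow with the match in capitals, beginning 85 bases before the start.
Txnip: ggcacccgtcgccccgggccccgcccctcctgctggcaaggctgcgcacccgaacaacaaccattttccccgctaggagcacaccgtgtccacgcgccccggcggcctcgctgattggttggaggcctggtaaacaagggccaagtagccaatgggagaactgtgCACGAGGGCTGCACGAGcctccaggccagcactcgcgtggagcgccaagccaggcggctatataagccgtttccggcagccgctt
Binding of any factor there was not measured.

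Glucose uptake and glycolysis did not move as a pathway. Of 20 genes, 10 were above 0, with a median of -0.0051, and Pfkp was the one that passed. Aldoc, an aldolase, was at 5.54, 5.94 and 5.08 in the KAA lines and at 6.50, 7.09 and 5.67 in the WM lines, where WM3 lay within the KAA range (difference 0.90, standard error 0.35). Slc2a1, the main glucose transporter of these cells, was between 11.20 and 11.27 in the KAA lines and between 11.25 and 11.53 in the WM lines. Ldha, which makes lactate, differed by -0.13. Among 23 targets and regulators of HIF, the oxygen-sensing factor, 14 were above 0, with a median of 0.037 and 0 calls. Without KAA1 the median was 0.18, with 17 of 23 above 0, and without KAA2 it was 0.019. Adm, the vasodilator adrenomedullin, was at 4.46, 3.68 and 4.10 in the KAA lines and at 4.97, 4.89 and 4.52 in the WM lines, and Vegfa, the angiogenic factor, at 5.97, 6.05 and 5.85 and at 6.83, 6.61 and 6.09. In both, the groups did not overlap, with differences of 0.71 and 0.55.

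Spry4, a feedback brake on growth factor receptors that ERK itself induces, fell by 1.20, or 2.30-fold, with a standard error of 0.14. It was at 8.61, 8.35 and 8.48 in the KAA lines and at 6.98, 7.28 and 7.57 in the WM lines. The highest WM line lay well below the lowest KAA line, and the FB lines, between 8.39 and 8.55, overlapped the KAA lines only. Limma gave it an adjusted p of 0.253. The difference without any single line was between -1.05 and -1.35, and the rank product did not call it without KAA1 or without WM1. Without KAA2 and WM3 it was -1.41 and passed.

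The wider group of ERK feedback inhibitors and targets went both ways. Of 17 genes, 10 were above 0, with a median of 0.058, and Spry4 was the one that passed the rank product. Without KAA2 the median was -0.035, with 8 of 17 above 0. At an unadjusted p under 0.05 in limma, 4 were lower and 2 higher, against 3.29% and 3% of all clusters. Spry2, a relative of Spry4, was at 8.45, 8.25 and 8.46 in the KAA lines and at 7.60, 8.02 and 8.18 in the WM lines, and Epha2, an ephrin receptor, at 8.48, 8.43 and 8.36 and at 7.98, 7.72 and 8.09. In both, every WM line lay below every KAA line, with differences of -0.45 and -0.50. Dusp6, the phosphatase that inactivates ERK, differed by -0.59 with overlap, KAA2 at 8.65 and WM3 at 8.75. Against these, Il17rd, an FGF signaling inhibitor, was at 6.64, 6.65 and 6.77 in the KAA lines and at 7.58, 7.05 and 6.78 in the WM lines. Spry1, another relative, differed by 0.082.

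Immediate early genes, which answer ERK within minutes, were lower in 13 of 15 cases, with a median of -0.14 and 0 calls. This count rested on KAA2 and on WM2. Fosb was at 7.94 in KAA2 but between 4.99 and 5.67 in the other 5 IVF lines. Without KAA2 the median was 0.019 with 9 of 15 above 0, and without WM2 it was -0.045 with 7 of 15. Ier2 was at 8.22, 8.45 and 8.12 in the KAA lines and at 7.91, 8.03 and 7.62 in the WM lines, which did not overlap (difference -0.41, standard error 0.13).

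**Figure D3:**
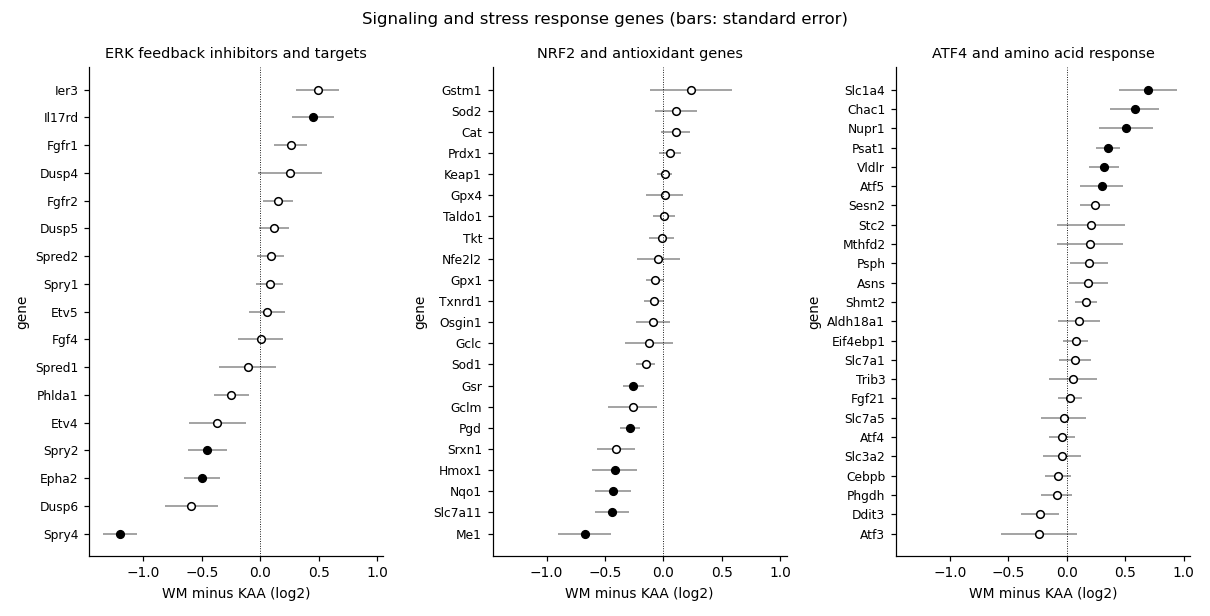
WM minus KAA difference (log2, bars standard error from limma) of each measured gene of 3 lists: ERK feedback inhibitors and targets (17), NRF2 and antioxidant genes (22) and ATF4 and amino acid response genes (24). Filled points mark genes in which every WM line lay above or below every KAA line, and Spry4 is the one gene here that passed the rank product.

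Genes of NRF2, the transcription factor that answers oxidative stress, were lower in the WM lines in 15 of 22 cases, with a median of -0.086 against -0.0068 for all clusters, and 0 passed the rank product. Every WM line lay below every KAA line in 6 of the 22, against 4.63% of all clusters, and above in 0. Me1, the cytosolic malic enzyme that makes NADPH, was at 7.60, 7.07 and 7.01 in the KAA lines and at 6.74, 6.50 and 6.42 in the WM lines (difference -0.68, standard error 0.23), and its other cluster differed by -0.88. Nqo1, a quinone reductase, was at 6.58, 6.39 and 6.84 in the KAA lines and at 5.93, 6.35 and 6.22 in the WM lines. Slc7a11, the cystine transporter, was at 3.81, 4.00 and 3.50 in the KAA lines and at 3.43, 3.09 and 3.47 in the WM lines. These 3 were separated, as were Pgd of the pentose phosphate pathway (-0.29), the glutathione reductase Gsr (-0.26) and the heme oxygenase Hmox1 (-0.42). The means of the whole list were 8.41 to 8.45 in the KAA lines and 8.27 to 8.30 in the WM lines, and 8.44 to 8.53 in the FB lines. Not all members took part. Txnrd1 differed by -0.082, and Gstm1, Sod2 and Cat had differences above 0. Without any single line the median was between -0.14 and -0.065.

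Genes of ATF4, the factor that answers amino acid shortage and endoplasmic reticulum stress, had 17 of 24 above 0, with a median of 0.13 and 0 calls. Every WM line lay above every KAA line in 6, against 4.03% of all clusters. Psat1, an enzyme of serine synthesis, was at 9.13, 9.36 and 9.37 in the KAA lines and at 9.71, 9.74 and 9.48 in the WM lines (difference 0.35, standard error 0.10). Slc1a4, a transporter of neutral amino acids, was at 5.43, 4.67 and 5.12 and at 5.73, 5.96 and 5.62, and Chac1, which degrades glutathione, at 6.79, 6.46 and 6.79 and at 6.87, 7.21 and 7.70. Vldlr, Nupr1 and Atf5 were the others of the 6. The KAA lines were low and the WM lines high in all of these, but the list's members Ddit3 and Atf3 had differences of -0.23 and -0.24, with KAA2 highest. The median of the list was 0.058 without WM2 and between 0.088 and 0.18 without any other single line. Endoplasmic reticulum chaperones had a median of 0.023.

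S100g, an intestinal calcium-binding protein, and Srgn, a proteoglycan of secretory granules, fell most. S100g was at 8.02, 6.01 and 5.93 in the KAA lines and at 4.77, 5.31 and 5.05 in the WM lines. The groups did not overlap, KAA1 stood far above KAA2 and KAA3, and the difference of -1.61 (standard error 0.87) was -0.92 without KAA1 and then did not pass. Srgn was at 8.85, 5.51 and 5.14 in the KAA lines and at 3.82, 4.73 and 5.21 in the WM lines. WM3 lay above KAA3, and the difference of -1.91 (standard error 1.21) was -0.73 without KAA1. The FB lines spread as widely, from 3.77 to 7.33 for S100g and from 4.52 to 8.45 for Srgn, with FB1 highest in both. KAA1 and FB1 were also the lines with the highest primitive endoderm markers, given below, and the part of these in the result was not tested. Reg2, of the regenerating islet family, was at 5.33, 4.58 and 4.58 in the KAA lines and at 3.45, 3.09 and 4.58 in the WM lines and fell by 1.12. WM3 was level with KAA2 and KAA3, and the call was lost in 5 of the 6 runs without a line. Slc27a2, a fatty acid transporter, came next, at the threshold and not under it, with a difference of -0.98 and every WM line below every KAA line.

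MicroRNA precursors made 2 of the 6 fallen clusters. Mir363 lies at the end of the X-linked Mir106a-363 cluster, whose relative on chromosome 14 is the cluster of Mir17hg, and both are active in ES cells and promote proliferation. The mature sequences are shown because Mir363 and Mir92-1 share a seed, the bases 2 to 8 that choose target mRNAs, given here in capitals (RefSeq, GRCm38.p6). Mir92-2 gives the same mature form as Mir92-1, and miR-20b and miR-106a stand for another seed of the X-linked cluster.
miR-363-3p, chrX:52741697-52741718, minus strand: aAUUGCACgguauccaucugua
miR-92a-3p, chr14:115044476-115044496, plus strand: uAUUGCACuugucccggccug
miR-20b-5p, chrX:52742159-52742181, minus strand: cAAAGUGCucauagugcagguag
miR-106a-5p, chrX:52742541-52742563, minus strand: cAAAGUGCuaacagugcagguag
The seed AUUGCAC occurs in 6 mature mouse miRNAs of the table and AAAGUGC in 7. The array probes read the precursor transcript and not the mature form.

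Mir363 was at 4.56, 6.83 and 5.42 in the KAA lines and at 3.94, 3.53 and 4.93 in the WM lines and fell by 1.47, with a standard error of 0.58. The groups overlapped, since WM3 lay above KAA1, and KAA2 was far above the rest. The FB lines lay between 4.94 and 6.09. Its call was lost in 4 of the 6 runs without a line, with differences between -0.86 and -1.99. The cluster shared by Mir92-1 and Mir17hg was at 4.00, 4.33 and 5.25 in the KAA lines and at 2.80, 4.09 and 3.50 in the WM lines and fell by 1.06, with WM2 above KAA1. Its call was lost without KAA2, KAA3 or WM1. The other members of the X-linked cluster lay near the bottom of the scale. Mir92-2 differed by -0.21, Mir106a by -0.36, Mir20b by -0.41 and Mir19b-2 by 0.16, and all overlapped between the groups. Mir17hg, in a cluster of its own, differed by -0.35.

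On chromosome 12, 2 microRNA clusters of the imprinted region between Dlk1 and Dio3 rose. This region, transcribed from the maternal copy through Meg3, Rian and Mirg, is often silenced in ES cell culture. The mature forms of the 2 risen precursors share no seed with each other.
miR-377-3p, chr12:109740553-109740574, plus strand: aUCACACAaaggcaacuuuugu
miR-410-3p, chr12:109743764-109743784, plus strand: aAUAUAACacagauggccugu
Mir377 was at 2.47, 2.19 and 2.21 in the KAA lines and at 3.15, 3.02 and 3.52 in the WM lines and rose by 0.94. The cluster shared by Mirg and Mir410 was at 2.22, 2.30 and 2.34 and at 3.88, 2.71 and 3.87 and rose by 1.20. Both were separated but low. The Mir377 call was kept in only 1 of the 6 runs without a line. That of Mirg and Mir410 was lost without WM1 or without WM3. Meg3, the first transcript of the region, was at 6.75, 6.44 and 6.46 in the KAA lines and at 6.64, 7.37 and 7.93 in the WM lines (difference 0.76, standard error 0.65), with WM1 within the KAA range. The FB lines ran from 5.22 to 8.21. Of the 51 clusters of the region, taken after these values were seen, 20 were above 0, with a median of -0.031. Every WM line lay above every KAA line in 3 of the 51 and below in 4, against 4.03% and 4.63% of all clusters. Rian differed by -0.23 in a cluster of its own, with overlap. Of the 51, 27 had a mean under 3 over the 6 lines, near the bottom of the scale, where a change may not be detectable. DQ267102, a better expressed transcript there, was at 5.77, 5.30 and 5.45 in the KAA lines and at 5.82, 5.82 and 6.17 in the WM lines. Among 23 imprinted genes of the whole genome 11 were above 0, with a median of -0.049 and 0 calls. Igf2, the fetal growth factor, was at 7.89, 8.44 and 8.26 in the KAA lines and at 7.78, 7.55 and 7.67 in the WM lines, which did not overlap (difference -0.53, standard error 0.20).

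Primitive endoderm genes were lower in the WM lines in 20 of 20 cases, with a median of -0.33 against -0.0068 for all clusters, and 0 passed the rank product. KAA1 carried most of this. Gata6, which starts the lineage, was at 7.01, 5.73 and 5.48 in the KAA lines and at 4.87, 5.62 and 5.48 in the WM lines. Gata4 was at 6.51, 5.48 and 5.27 and at 5.08, 5.23 and 5.25, and Lama1, a laminin of the basement membrane that this tissue lays down, at 7.32, 4.86 and 4.90 and at 4.48, 5.07 and 5.03. In all of them KAA1 was the highest line. The groups overlapped in Gata6 and Lama1, and in Gata4 KAA3 lay just above WM3. The median of the list without KAA1 was -0.093, with 14 of 20 below 0, whereas without any other single line it lay between -0.47 and -0.27. The mean level of the list was 6.03 in KAA1, 5.27 in KAA2 and 5.25 in KAA3, and 5.08 to 5.25 in the WM lines. FB1 was at 5.77 and FB2 and FB3 at 5.06 and 5.05, so that in each of these groups a single line stood high. The smallest p in the list belonged to Dkk1, a Wnt inhibitor, at 5.05, 4.87 and 5.38 in the KAA lines and 4.72, 4.87 and 4.43 in the WM lines, and to Pdgfra, whose difference was -0.46.

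**Figure D4:**
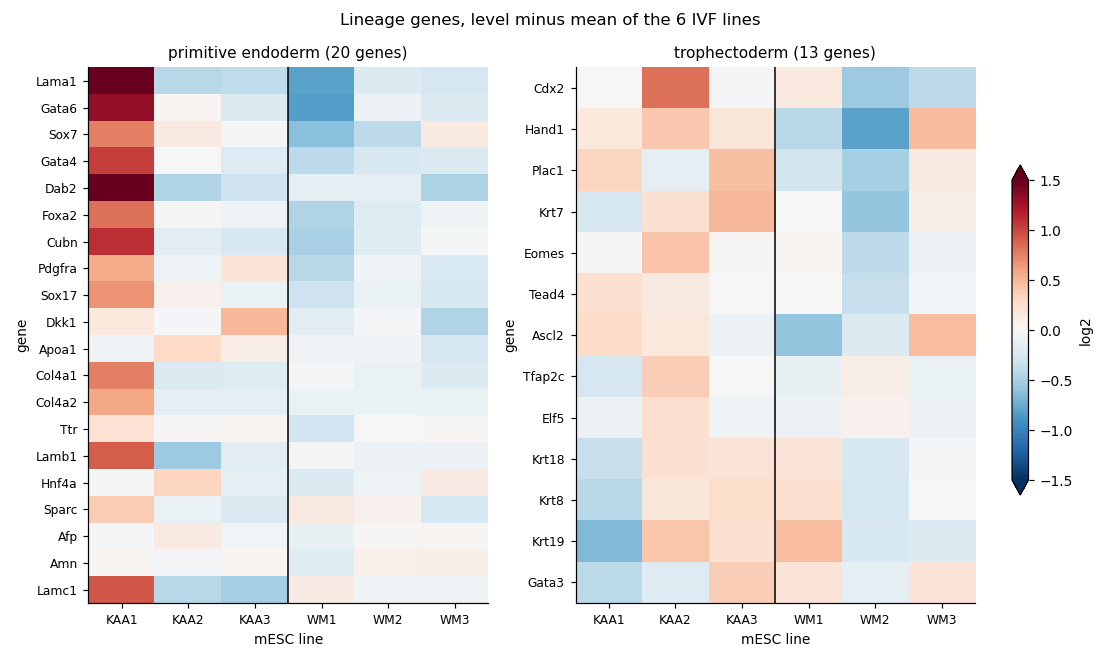
Log2 level of each primitive endoderm gene (20) and trophectoderm gene (13) in each of the 6 IVF lines, as the difference from the gene's mean over these lines, with KAA lines left and WM lines right of the black bar. The red column of KAA1 holds most of the primitive endoderm difference, and no such single column appears for trophectoderm.

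Trophectoderm genes, of the layer that forms the placenta, were lower in 11 of 13 cases, with a median of -0.23 and 0 calls. Cdx2, which specifies the layer, was at 5.15, 5.98 and 5.13 in the KAA lines and at 5.30, 4.62 and 4.77 in the WM lines. Eomes was at 5.03, 5.44 and 5.03 and at 5.04, 4.62 and 4.93. Both overlapped between the groups, and no gene of the list was separated. Without any single line the median lay between -0.30 and -0.14, and without KAA2 7 of 13 were below 0. Of 13 genes of epiblast priming and early ectoderm, 3 were above 0, with a median of -0.096 and 0 calls. Otx2, which drives the exit from the naive state, was at 6.51, 5.57 and 5.86 in the KAA lines and at 5.13, 5.51 and 5.23 in the WM lines (difference -0.69, standard error 0.27). Zic2, in the same list, had the opposite sign, at 5.88, 5.17 and 5.34 and at 6.46, 6.31 and 5.96 (difference 0.78, standard error 0.20). Neither overlapped between the groups.

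The naive pluripotency genes had 14 of 24 above 0, a median of 0.0091 and 0 calls. Without WM1 20 of 24 were above 0, with a median of 0.10, and without WM2 6 of 24, with a median of -0.044. Fbxo15, a target of Oct4 and Sox2, had the smallest p, at 8.18, 7.98 and 7.90 in the KAA lines and at 8.62, 9.08 and 8.63 in the WM lines (difference 0.75, standard error 0.25). Nanog was at 8.52, 9.72 and 9.32 and at 9.98, 10.35 and 9.09, and overlapped. Of 10 Nodal and BMP signaling genes 8 were above 0, with a median of 0.15. Bmp4, the one of them that was separated, was at 6.70, 6.63 and 6.38 in the KAA lines and at 6.83, 6.99 and 7.35 in the WM lines. The DNA methylation machinery had 3 of 11 above 0 and a median of -0.12, and germline genes, many of which are silenced by methylation, had a median of -0.025. Both lists had 0 calls. Without KAA1 the medians were 0.089 and 0.043.

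Markers of fibroblasts, the feeder cells of the early passages, were measured in the same arrays. Of 29, 19 were above 0, with a median of 0.079 and 0 calls, and 7 were higher at an unadjusted p under 0.05 in limma, against 3% of all clusters. Without KAA1 the median was 0.021. Bgn, the matrix proteoglycan biglycan, was at 5.12, 5.09 and 4.93 in the KAA lines and at 6.28, 6.22 and 5.23 in the WM lines. WM3 lay just above the KAA lines, and without it Bgn passed limma with a difference of 1.20 (standard error 0.086, adjusted p = 0.0281), the single gene to do so in a run without a line. Acta2, smooth muscle actin, was at 8.56, 8.88 and 8.67 and at 8.87, 9.82 and 9.34, and Vim, vimentin, at 8.81, 9.11 and 8.98 and at 9.33, 9.82 and 9.28. The mean level of the list was 5.49 to 5.67 in the KAA lines and 5.69 to 5.79 in the WM lines. Some fibroblast genes were low in all 6 lines, with Lum between 1.68 and 1.89, Postn between 2.27 and 2.43 and Dcn between 2.97 and 3.19. Acta2 and Vim, markers of the same list, were not. The collagen genes Col1a1, Col1a2 and Col3a1 differed by 0.079, -0.13 and -0.039. The part of these cells in the other results was not tested.

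Limma ordered other genes by the steadiness of their difference, though none of them passed. Nfil3, a repressor among the clock output factors, was at 5.90, 5.68 and 5.54 in the KAA lines and at 6.50, 6.44 and 6.55 in the WM lines (difference 0.79, adjusted p = 0.278). Its FB lines, between 5.69 and 5.92, lay near the KAA lines. Ppp2r5c, a regulatory subunit of the phosphatase PP2A, was at 6.05, 5.79 and 5.88 and at 5.32, 5.34 and 5.29 in 1 of its 4 clusters (adjusted p = 0.278) and differed by -0.12 to 0.13 in the others. Pde1b, a phosphodiesterase, had a difference of 0.70 and Trmt1l, a tRNA methyltransferase, one of 0.71. Dclre1b, a nuclease that protects telomeres, had a difference of -0.60, Prpf4 of the spliceosome one of -0.42 and Zfp329 one of -0.86. Every WM line was on one side of every KAA line in all of these. Scgb2b2, Hoxaas2 and Gabra2, also among the smallest p, lay between 1.61 and 3.19.

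**Figure D5:**
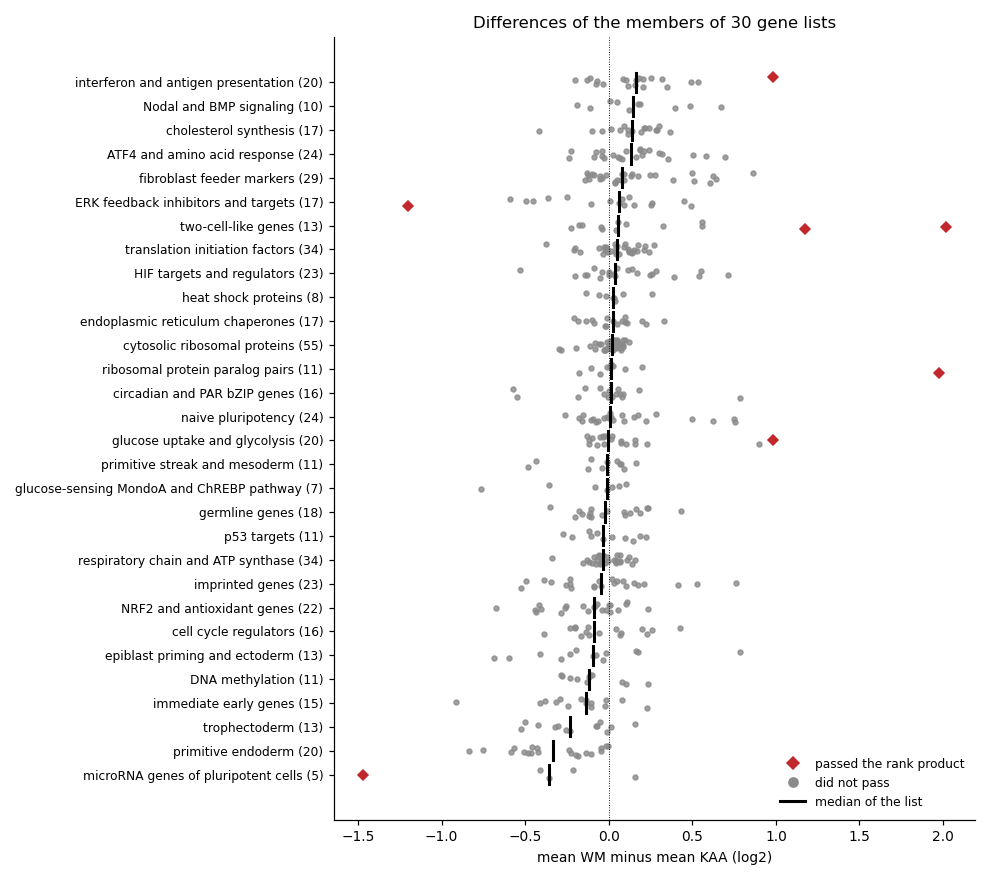
WM minus KAA difference (log2) of each measured member of 30 gene lists, with the number of members in brackets, the median as a black bar and red diamonds for members that passed the rank product. Primitive endoderm is the list with all of its members below 0, and the other list medians lie between -0.36 and 0.16.

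Over all 30 lists, 547 of 643 listed genes had a cluster of their own. The medians ran from -0.36, for 5 microRNA genes, to 0.16, for interferon genes, and 15 lists lay above 0. In 16 lists the median turned its sign when a single line was left out, among them naive pluripotency, ERK, immediate early, 2-cell-like, imprinted, germline, DNA methylation, glycolysis and MondoA genes. A rank product call fell in 6 lists. Cholesterol synthesis had 14 of 17 above 0 and a median of 0.14. Fdps, an enzyme of isoprenoid synthesis, was at 8.31, 8.84 and 8.34 in the KAA lines and at 9.02, 9.00 and 8.59 in the WM lines, which overlapped. Sc5d, another enzyme of the pathway, had the opposite sign, at 7.64, 7.45 and 7.67 and at 7.29, 6.95 and 7.27. Without WM1 the median of this list was 0.025. The respiratory chain had 13 of 34 above 0 and a median of -0.037, with Sdhd, a membrane subunit of succinate dehydrogenase, at 9.43, 9.34 and 9.48 and at 9.22, 9.00 and 9.03. Heat shock proteins, p53 targets, cell cycle regulators, circadian genes and primitive streak genes had medians between -0.086 and 0.027 and 0 calls.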

How the data were processed

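The authors hybridized RNA of 9 mESC lines and deposited log2 levels, which per the methods were made by RMA (background correction, normalization between arrays, 1 level per transcript cluster) in affylmGUI. The submitters' processing notes name Affymetrix Expression Console and R 3.1.0. Groups and line numbers came from the sample titles. Clusters without an annotated gene (12146) were left out, and 21698 single-symbol clusters were matched to RefSeq (GRCm38.p6) for current symbols and chromosomes. Coordinates of the array's clusters were not used because the table names no build. RefSeq positions set the region between Dlk1 and Dio3 and the printed promoter and microRNA coordinates. Having 3 arrays per group sets the precision, and 3 lines against 3 cannot give an exact permutation p under 0.1.

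The rank product was written in numpy 2.4.6 (Python 3.11.15, pandas 2.3.3) with 9 pairwise differences and 100 permutations within arrays. Limma 3.58.1 (R 4.3.3, statmod 1.5.0) was fitted over all 9 lines with 1 mean per group, two-sided, with Benjamini-Hochberg adjustment over all tested clusters. Both were tested on simulated data. For each listed gene the single-symbol cluster of highest mean was used, and lists are described by counts and medians. Plots used matplotlib 3.10.9.

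The members and lists were chosen with earlier results of these data known. The naming rule took the first 15 single-symbol clusters per direction by the rank product and the 10 smallest limma p per direction. It also took up to 4 genes per list, the markers of the methods, Xist and Y-linked genes. Not all of these are printed. Left out above were, among others, the markers Lefty2 (difference 0.40), Meox1 (-0.43) and Fgf5 (-0.41). Other genes were named after their values were seen. Alternatives were other sets of clusters, quantile normalization, limma settings, thresholds, a replicate block, and leaving out lines.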

Additional observations from a re-analysis of the deposited data

How the results depend on the processing

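The 59 risen and 6 fallen clusters of the rank product became 78 and 40 with all clusters of the table, of which only 30 and 3 were among the 59 and the 6, 12 and 7 among clusters of at least median level, 19 and 6 with 1 cluster per gene symbol and 69 and 10 with quantile normalization. They became 90 and 22 at a pfp under 0.1 and 31 and 4 at a pfp under 0.01. Leaving out each line in turn gave 23 to 62 risen and 1 to 35 fallen clusters. Without KAA2 and WM3, a choice made after seeing the data, there were 28 and 12. The cause of these shifts was not tested. The deviations of same-numbered lines from their group means correlated at -0.013, 0.12 and 0.050. For lines of different numbers these values ran from -0.12 to 0.072. Whether the line numbers pair the lines was not tested. With a replicate block, 55 clusters rose and 11 fell, 53 and 4 of them shared with the unblocked calls, and limma gave 0 calls and 1876 at an unadjusted p under 0.05.

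Limma gave 0 calls under every alternative other than 1 without WM3 (Bgn) and 1 without KAA2 and WM3 (Irgm2 with Igtp), so that leaving out each line gave 0 to 1. At an unadjusted p under 0.05 it gave 1473 clusters, 898 of those at or above the median level, and 1186 to 1835 when a line was left out. Clusters with every WM line above every KAA line numbered 943 of 23410, or 1440 of 35556 in the whole table. They numbered 1331 with quantile normalization of the 23410 and 720 among clusters at or above the median level. Those with every WM line below numbered 1084, or 1747 in the whole table, 1424 with quantile normalization and 538 at or above the median level. The shares of 4.03% and 4.63% given above are therefore those of the main setting only. Of 39 named differences 0 changed sign with quantile normalization or without lines. Of the 24 that passed the rank product, 4 passed in all of these settings, namely Rpl39l, Gm5662 and clusters of Gm7982. Many of the 24 are Gm7982 clusters, some with the same values, so neither the 24 nor the 39 are all separate findings. In most of the 39, every WM line lay on one side of every KAA line, so leaving out lines could not turn the sign. Xist lay between 2.57 and 2.97 in the 6 lines.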
